A study of Mus musculus with 6 samples.

Results

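The 9 genes described here encode the machinery that presents peptides on major histocompatibility complex (MHC) class I molecules, in undifferentiated mouse iPSCs generated with or without 3i during reprogramming. They are the classical heavy chains H2-K1 and H2-D1, the light chain B2m, the peptide transporter subunits Tap1 and Tap2, the peptide-loading factor Tapbp and the immunoproteasome subunits Psmb8, Psmb9 and Psmb10. Described are all probe sets whose array annotation names one of these genes, 29 of 45037 probe sets, and 9 of the 18194 genes that have a probe set of their own. The genes had been chosen on differences seen between the groups on these arrays. Their values are therefore a description without a test, while genes of related lists were tested.

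RNA was taken from 6 clones on 1 array each, (+)/(+) clones 4, 5 and 6 and (−)/(+) clones 1, 2 and 3. The (+)/(+) iPSCs received 3i in both the reprogramming and the maintenance period, and the (−)/(+) iPSCs received 3i only in the maintenance period, after colonies were picked. The mixture 3i holds CHIR99021, an inhibitor of GSK3, PD184352, an inhibitor of MEK, and SU5402, an inhibitor of FGF receptors. All clones of both groups came from fibroblasts of E13.5 mouse embryos, homozygous for a Nanog-EGFP transgene that serves as a reporter, were made with retroviral Oct3/4, Sox2, Klf4 and c-Myc together with a dsRed virus, and grew on SNL feeder cells, a line of mouse fibroblasts. The sources used here do not say whether feeder cells were removed before RNA was isolated for the arrays.

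Signals are MAS 5.0 values of Affymetrix arrays on a linear scale, scaled by the authors to a trimmed mean of 500. The median signal was 64.1 to 70.2 on the (+)/(+) arrays and 74.3 to 75.7 on the (−)/(+) arrays. Differences are (+)/(+) minus (−)/(+) means of log2(signal + 16), which makes the change of a dim gene look smaller than it is, with 95% intervals from limma. The 22518 probe sets whose mean lay above the median of all, 67.2 as a signal, were tested, and a probe set was called where its adjusted p (Benjamini-Hochberg, over all of them) was under 0.05. Of these, 398 were called lower in the (+)/(+) clones (1.77%) and 305 higher (1.35%), and 4778 had an unadjusted p under 0.05. The mean is taken over both groups, so a dim probe set can pass this filter through its higher group alone. The study describes the clones of each group as independent, and p-values measure the spread between these clones. Scan dates are not given in the sources used, and a batch that followed the groups cannot be told apart from them.

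MHC class I molecules show fragments of the proteins made inside a cell to cytotoxic T cells. Proteasomes cut proteins into peptides, the Tap1-Tap2 transporter carries the peptides into the endoplasmic reticulum, and tapasin, the product of Tapbp, holds the transporter next to an empty heavy chain paired with β2-microglobulin, the product of B2m. Interferon γ induces the whole set, including 3 catalytic subunits that replace those of the standard proteasome, and the transactivator NLRC5 acts on many of its promoters. Embryonic stem cells and iPSCs are known for low class I expression, whereas fibroblasts, the cells of origin and of the feeder layer, express class I readily.

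The genes lie in 3 places of the GRCm38.p6 assembly. Tapbp (33919478 to 33929290), H2-K1 (33996012 to 34000619), Psmb9 (34182030 to 34187330), Tap1 (34187556 to 34197225), Psmb8 (34198195 to 34201454), Tap2 (34204479 to 34216321) and H2-D1 (35263094 to 35267497) share the MHC region of chromosome 17. B2m lies on chromosome 2 (122147687 to 122153082) and Psmb10 on chromosome 8 (105935728 to 105938392). Tap1 and Psmb9 are transcribed away from each other, with start sites 226 bases apart.

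The stretches of 250 bases before the start are shown for the light chain, both heavy chains and Tapbp, whose values are given most fully, so that their motifs can be compared. They are given 5′ to 3′ from RefSeq for GRCm38.p6, for B2m at chr2:122147437-122147686 (+ strand), for H2-K1 at chr17:34000348-34000597 (− strand, the first of 2 listed windows, whose start lies inside the span of the gene), for H2-D1 at chr17:35262844-35263093 (+ strand) and for Tapbp at chr17:33919228-33919477 (+ strand). Capitals mark, on either strand, the NF-κB-type motif GGGATTCCC, the interferon-response-type motifs GAANNGAAA and GAAANNGAAA, TGACG, which is the core of the CREB-type site, and CCAAT, the NF-Y-type motif, with no overlap between marked motifs.
B2m: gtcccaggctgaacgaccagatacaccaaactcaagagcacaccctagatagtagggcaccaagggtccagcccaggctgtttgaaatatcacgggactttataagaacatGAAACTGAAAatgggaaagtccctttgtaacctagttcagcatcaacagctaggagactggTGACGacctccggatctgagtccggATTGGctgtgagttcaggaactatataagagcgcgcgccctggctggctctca
H2-K1: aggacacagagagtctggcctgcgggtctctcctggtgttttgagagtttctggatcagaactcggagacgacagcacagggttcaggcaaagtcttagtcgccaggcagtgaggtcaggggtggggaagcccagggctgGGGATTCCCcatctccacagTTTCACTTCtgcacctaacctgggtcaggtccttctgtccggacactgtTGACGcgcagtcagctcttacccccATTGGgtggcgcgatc
H2-D1: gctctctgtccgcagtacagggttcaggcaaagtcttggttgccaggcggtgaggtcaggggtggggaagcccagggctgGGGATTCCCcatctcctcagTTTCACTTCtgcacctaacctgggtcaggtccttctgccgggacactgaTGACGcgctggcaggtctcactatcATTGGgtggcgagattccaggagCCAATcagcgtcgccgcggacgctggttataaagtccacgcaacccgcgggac
Tapbp: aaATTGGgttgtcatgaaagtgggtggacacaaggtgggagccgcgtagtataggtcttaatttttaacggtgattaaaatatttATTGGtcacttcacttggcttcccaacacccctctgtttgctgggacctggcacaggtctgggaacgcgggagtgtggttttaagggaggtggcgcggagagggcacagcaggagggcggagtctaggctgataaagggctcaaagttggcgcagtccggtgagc

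Both heavy-chain windows hold GGGATTCCC, which occurs in 99 of 32851 promoter windows of this length (0.301%). It is followed by GAANNGAAA on the other strand (6.31% of windows), TGACG (17.8%) and CCAAT on the other strand (33.8%). In the H2-K1 window the first bases of these motifs lie 110, 90, 41 and 16 bases before the start. The H2-D1 window also holds CCAAT on the strand shown, 53 bases before the start. Shifted by 60 bases, the H2-K1 and H2-D1 windows were identical at 166 of 190 aligned bases (87.4%). The B2m window holds GAAANNGAAA (2.98% of windows), TGACG and, on the other strand, CCAAT, in the same order, 139, 78 and 53 bases before the start. In the Tapbp window CCAAT was the only one of these motifs, on the other strand. The windows of Tap1 and Psmb9 overlap on opposite strands, and the TGACG and CCAAT that they hold are the same sites. Those of Psmb8 and Psmb10 hold none of the 5 motifs. Promoters were matched for 8 of 9 members, all but Tap2. A match says only that these letters are present.

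The values of the members were lower in the (+)/(+) clones for the most part. Of the 26 probe sets annotated to 1 member, 17 were bright enough for the fit, standing for 8 of the 9 genes, and the other 9 were not. Of the 17, 16 had a negative log2 difference, the range being -0.98 to 0.02, and 4 were called lower and 0 higher, beside 1.77% and 1.35% of all tested probe sets. In 11 all (+)/(+) clones lay below all (−)/(+) clones and in 0 above, beside 16.6% and 10.5% of all tested probe sets. The 11 include 1451683_x_at of H2-D1, which passed the filter only through its (−)/(+) clones. Counted by the brightest probe set of each gene, 2 of 8 genes were called lower, beside 1.41% of 11177 genes called lower and 1.55% called higher. The median log2 difference was -0.51 over the 8 genes and -0.05 over all tested genes. Since this contrast chose the members, nothing is read from these counts. The 4 lower calls became 1 without clone 4 and 0 without clone 3, 5 or 6, and numbered 4 without clone 1, all of them among those called with all clones, and 4 without clone 2, of which 1 was (Tapbp, the others being of H2-K1). The MHC genes of different alleles and of near-identical copies share sequence, and most heavy-chain probe sets carry the array maker's suffix _x_at for probes that may bind related transcripts. In RNA of bulk cultures, fewer cells of one type and less RNA per cell cannot be told apart.

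**Figure D1:**
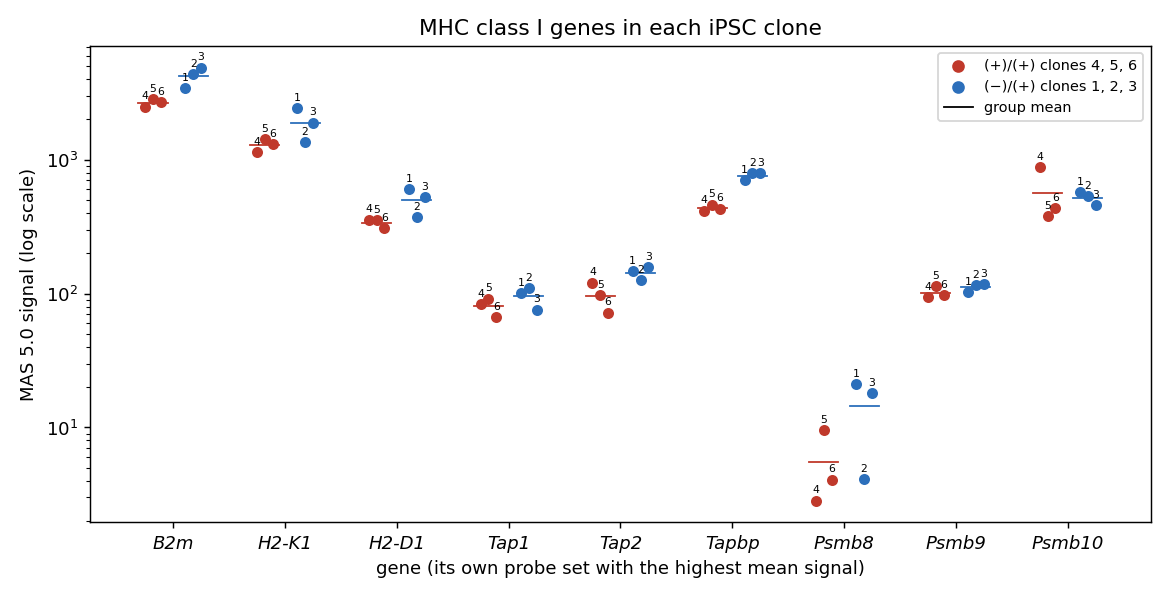
MAS 5.0 signal (y axis, log scale) of the 9 members by the brightest probe set of each gene (x axis) in each clone, with red points for (+)/(+) clones 4, 5 and 6, blue points for (−)/(+) clones 1, 2 and 3, clone numbers beside the points and lines at the group means. The groups do not overlap for B2m, H2-D1, Tap2 and Tapbp, and Psmb8 lies between 2.84 and 21.0.

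B2m encodes the light chain that every classical class I molecule needs to reach the cell surface. On probe set 1449289_a_at its signal was 2494, 2824 and 2689 in (+)/(+) clones 4, 5 and 6, against 3417, 4374 and 4875 in (−)/(+) clones 1, 2 and 3. All (+)/(+) clones lay below all (−)/(+) clones, and the (−)/(+) clones were spread more widely, with clone 1 lowest and clone 3 highest. The (+)/(+) mean was 2669 ± 166 and the (−)/(+) mean 4222 ± 741 (SD, n = 3 each), a ratio of 0.632 and a log2 difference of -0.64 (95% interval -0.94 to -0.35). The second probe set, 1452428_a_at, had 2203, 2256 and 1799 in (+)/(+) clones, against 2933, 3276 and 3939 in (−)/(+) clones. It gave the same order of the (−)/(+) clones, and its log2 difference was -0.69 (95% interval -0.99 to -0.39).

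H2-K1 encodes the heavy chain of the K molecule, which forms the peptide groove. Its brightest probe set, 1425336_x_at, had a signal of 1135, 1423 and 1310 in (+)/(+) clones, against 2418, 1347 and 1892 in (−)/(+) clones. Here the groups overlapped, because (−)/(+) clone 2 lay among the (+)/(+) clones while (−)/(+) clone 1 was highest. The (+)/(+) mean was 1290 ± 145 and the (−)/(+) mean 1886 ± 536 (SD, n = 3 each), and the log2 difference was -0.51 (95% interval -0.93 to -0.09). The probe set 1451931_x_at had 271, 303 and 259 in (+)/(+) clones, against 561, 339 and 459 in (−)/(+) clones, a difference of -0.65. The probe set 1427746_x_at had 217, 294 and 223 in (+)/(+) clones, against 445, 298 and 467 in (−)/(+) clones, a difference of -0.67. In both, the groups did not overlap and (−)/(+) clone 2 was the (−)/(+) clone nearest to the (+)/(+) clones. The remaining probe set of H2-K1 lay between 37.2 and 96.4 and was not tested.

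H2-D1 encodes the D heavy chain and had 9 probe sets of its own, of which 7 were tested. The brightest, 1425545_x_at, had 357, 352 and 309 in (+)/(+) clones, against 605, 373 and 528 in (−)/(+) clones. The (−)/(+) clones were ordered as for the brightest probe set of H2-K1, with (−)/(+) clone 1 highest and (−)/(+) clone 2 just above the (+)/(+) clones. The (+)/(+) mean was 339 ± 26.4 and the (−)/(+) mean 502 ± 118 (SD, n = 3 each), with a log2 difference of -0.52 (95% interval -0.92 to -0.12). In 5 of the 7 tested probe sets all (+)/(+) clones lay below all (−)/(+) clones, beside 16.6% of all tested probe sets. The furthest apart was 1425614_x_at, with 98.5, 126 and 90.6 in (+)/(+) clones, against 180, 210 and 285 in (−)/(+) clones, a log2 difference of -0.98 (95% interval -1.45 to -0.52). Here (−)/(+) clone 3 was highest. At the other end, 1426324_at had 77.6, 88.2 and 94.5 in (+)/(+) clones, against 159, 58.7 and 84.8 in (−)/(+) clones, a difference of -0.10 (95% interval -0.75 to 0.55), with clone 2 lowest of all 6. The other 4 tested probe sets had differences of -0.42, -0.55, -0.63 and -0.42. The last of these values belongs to 1451683_x_at, which averaged 62.8 in (+)/(+) and 89.8 in (−)/(+) clones. Its (+)/(+) mean lay below the level of 67.2 that the filter set. This probe set, which is among the 5, was therefore tested only through its (−)/(+) clones, and its difference is not read as a change. Of the 2 probe sets too dim to be tested, 1451934_at averaged 47.8 in (+)/(+) and 29.8 in (−)/(+) clones. The other, 1450170_x_at, averaged 13.6 in (+)/(+) and 36.2 in (−)/(+) clones.

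Of 3 probe sets shared with other genes, shown apart, only 1424948_x_at, annotated to both H2-K1 and H2-D1, was bright enough for the fit. Its signal was 312, 254 and 284 in (+)/(+) clones, against 448, 369 and 461 in (−)/(+) clones. The groups did not overlap, and (−)/(+) clone 2 was again the lowest of its group. The log2 difference was -0.56 (95% interval -0.90 to -0.22). The probe set 1422348_at, shared by Gm38417, H2-Q2 and H2-D1, lay between 3.82 and 42.9, and 1451593_at, shared by H2-Q5 and H2-K1, between 8.34 and 93.1.

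**Figure D2:**
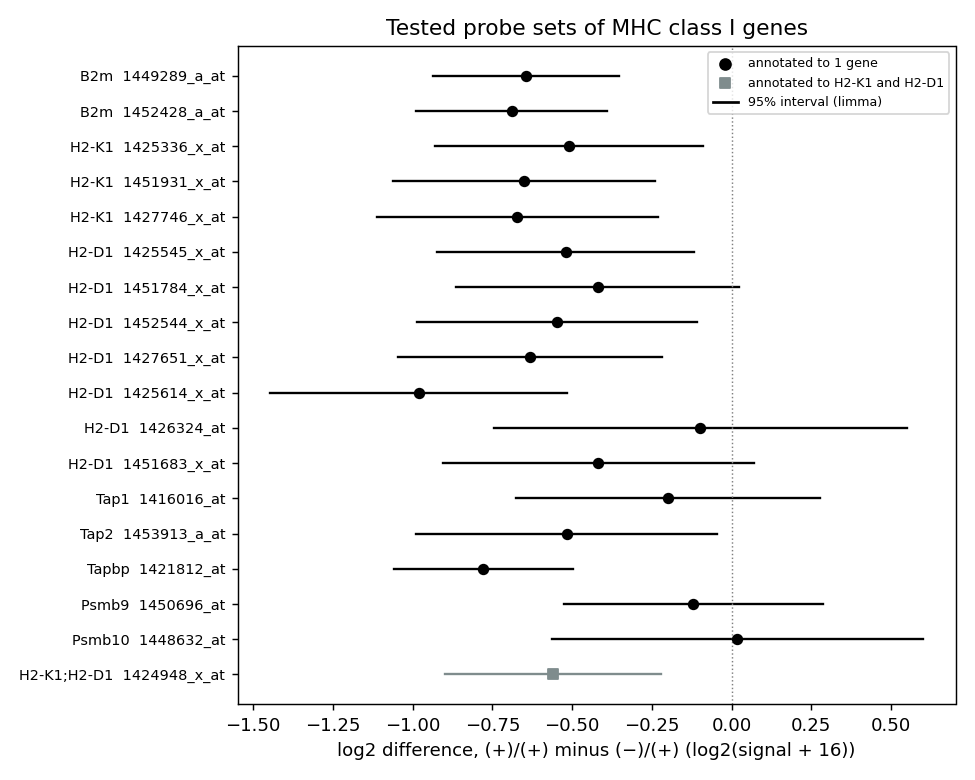
Log2 difference, (+)/(+) minus (−)/(+) on the log2(signal + 16) scale (x axis), of the 18 tested probe sets of the members (y axis, with gene and probe set), with 95% intervals from limma as bars (3 clones per group), black for probe sets annotated to 1 gene and grey for the one shared by H2-K1 and H2-D1. All points but that of Psmb10 lie below 0, from -0.98 for 1425614_x_at of H2-D1 to 0.02 for Psmb10.

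Tapbp and the Tap1-Tap2 transporter load peptides onto the heavy chains. Tapbp, on probe set 1421812_at, had 417, 462 and 431 in (+)/(+) clones, against 701, 793 and 789 in (−)/(+) clones. All (+)/(+) clones lay below all (−)/(+) clones, and no single clone stood apart within its group. The (+)/(+) mean was 437 ± 23.3 and the (−)/(+) mean 761 ± 52.0 (SD, n = 3 each), a ratio of 0.574 and a log2 difference of -0.78 (95% interval -1.06 to -0.50). The second probe set of Tapbp, 1450378_at, lay between 12.1 and 102 and was not tested. Tap2, on 1453913_a_at, had 121, 97.3 and 72.0 in (+)/(+) clones, against 147, 125 and 157 in (−)/(+) clones, a log2 difference of -0.52 (95% interval -0.99 to -0.05). The groups did not overlap, but (+)/(+) clone 4 and (−)/(+) clone 2 were only a few signal units apart. Tap1, on 1416016_at, had 83.8, 91.8 and 67.1 in (+)/(+) clones, against 101, 110 and 75.9 in (−)/(+) clones, and the groups overlapped. Its log2 difference was -0.20 (95% interval -0.68 to 0.28). The 3 other Tap1 probe sets lay between 1.51 and 40.9, and they differed among themselves in direction, with 20.8 in (+)/(+) and 5.14 in (−)/(+) clones for 1448177_at and 7.21 in (+)/(+) and 20.7 in (−)/(+) clones for 1420274_at.

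The immunoproteasome subunits were dim or overlapped between the groups. Psmb9, which takes the place of Psmb6, had 93.9, 113 and 98.0 in (+)/(+) clones, against 103, 115 and 117 in (−)/(+) clones. The groups overlapped, and the log2 difference was -0.12 (95% interval -0.53 to 0.29), with a sign that turned after quantile normalization and after scaling to a common median. Psmb8, which takes the place of Psmb5, was dim, with 2.84, 9.50 and 4.08 in (+)/(+) clones, against 21.0, 4.11 and 17.997 in (−)/(+) clones on 1422962_a_at. Its groups overlapped, its second probe set reached at most 11.1, and neither was tested.
Psmb10, which takes the place of Psmb7, had 878, 377 and 436 in (+)/(+) clones, against 570, 532 and 461 in (−)/(+) clones. (+)/(+) clone 4 was highest of all 6 and the other (+)/(+) clones were lowest. The log2 difference was 0.02 (95% interval -0.56 to 0.60), and -0.34 without clone 4 and -0.07 without clone 3. Clone 4 is the clone in which chromosome 8 was raised, with a median log2 shift of 0.41 from the median of the 6 clones over 329 genes. The 18 genes within 1 Mb of Psmb10 had a median shift of 0.47 in clone 4 and Psmb10 one of 0.81.

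**Figure D3:**
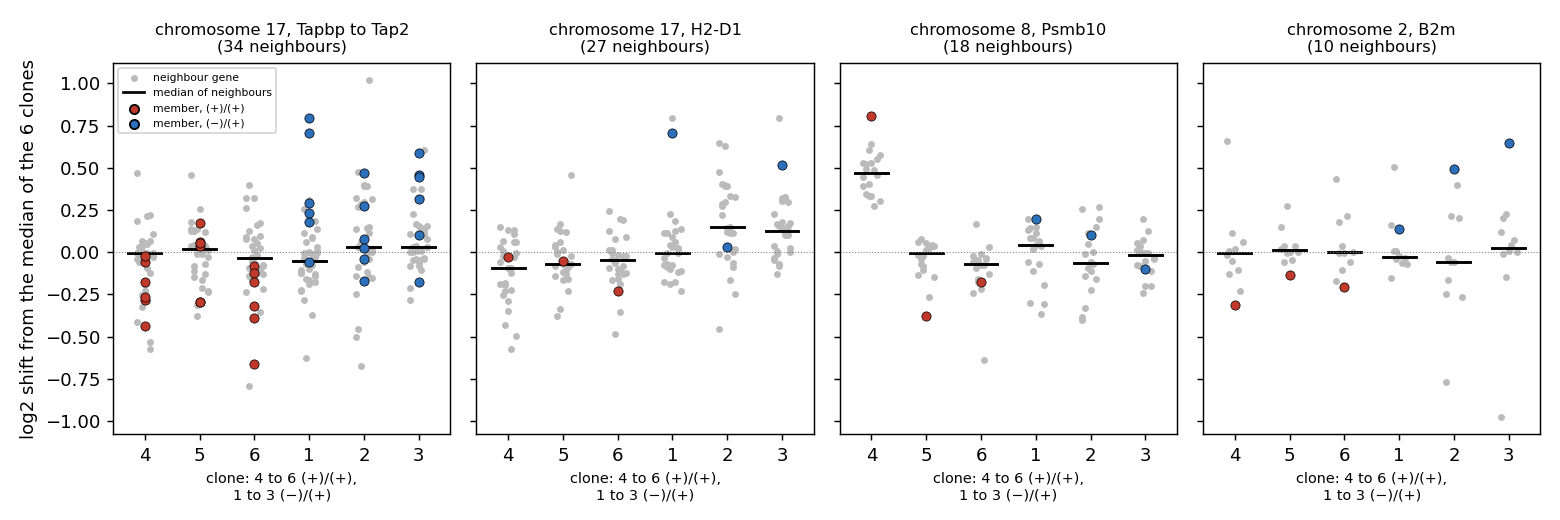
Shift of each clone on the log2 scale, relative to the median of the 6 clones (y axis), for genes within 1 Mb of the members with a mean signal above 500 (grey, with the median as a line) and for the members (red in (+)/(+) clones 4 to 6, blue in (−)/(+) clones 1 to 3). The neighbours of Psmb10 lie at a median of 0.47 in clone 4, and the medians around the other members stay within -0.09 and 0.15.

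Around the other members the neighbours showed no comparable shift. The 34 genes within 1 Mb of Tapbp, H2-K1, Psmb9, Tap1, Psmb8 or Tap2 had median shifts of -0.01, 0.02 and -0.03 in (+)/(+) clones, against -0.05, 0.03 and 0.03 in (−)/(+) clones, and single genes spread around them. Around H2-D1, 27 genes had -0.09, -0.07 and -0.04 in (+)/(+) clones, against -0.00, 0.15 and 0.13 in (−)/(+) clones, so that (−)/(+) clones 2 and 3 stood a little above the rest, whereas H2-D1 itself was shifted by 0.70 in clone 1 and by 0.03 in clone 2. Around B2m, the median of 10 genes lay within -0.06 and 0.03 in every clone. Beside 1.41% lower and 1.55% higher calls over all tested genes, the calls were 0 lower and 1 higher among the 34 genes, 1 lower and 0 higher around H2-D1, 0 lower and 0 higher around Psmb10, and 0 lower and 1 higher around B2m.

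Most markers of fibroblasts were lower in the (+)/(+) clones, as were B2m and Tapbp. Of 26 listed markers 25 were measured and 21 tested, with a median log2 difference of -0.65. Of the 21, 10 were called lower and 0 higher, beside 1.41% and 1.55% of all tested genes. In 15 all (+)/(+) clones lay below all (−)/(+) clones and in 0 above, beside 16.6% and 10.5% of all tested probe sets. The others, such as Dcn and Pdgfra, overlapped. A negative difference was found in 20, and Postn had 0.22. The summed signal of the 25 measured markers was 23550, 27321 and 26140 in (+)/(+) clones, against 35813, 44661 and 45898 in (−)/(+) clones. Vim and Fn1 are the brightest of them, at 6400 and 6489 in clone 4, so the sum mostly follows these genes. Fn1 was not called (adjusted p = 0.076 from limma). Col1a2, a chain of type I collagen, had 468, 694 and 558 in (+)/(+) clones, against 1441, 1701 and 2096 in (−)/(+) clones, and fell by 1.58 in log2 units (adjusted p = 0.0043 from limma). Timp3, Bgn and Vim, an inhibitor of matrix proteases, a proteoglycan and an intermediate filament, fell by 1.37, 1.08 and 0.87 (adjusted p = 0.011 each). The other 4 were too dim to be tested, and Thy1, a surface marker of fibroblasts, had a mean signal of 235. Leaving out one clone gave a count of lower markers of 4 (clone 3, 4 or 5), 1 (clone 6), 6 (clone 2) or 11 (clone 1). Without clone 6 Timp3, Bgn and Vim missed the threshold (adjusted p = 0.066 to 0.068), and Col1a2 passed whichever clone was left out (at most 0.034).
The median shift of the 21 markers was -0.36, -0.22 and -0.24 in (+)/(+) clones 4, 5 and 6, against 0.20, 0.33 and 0.61 in (−)/(+) clones 1, 2 and 3. B2m had shifts of -0.31, -0.14 and -0.21 in (+)/(+) clones, against 0.14, 0.49 and 0.65 in (−)/(+) clones, in the same order of clones. On their brightest probe sets the heavy chains had another order, since H2-K1 was shifted by 0.80 in (−)/(+) clone 1 and by -0.04 in (−)/(+) clone 2. Not all their probe sets did so. In H2-D1, 1425614_x_at had 180, 210 and 285 in (−)/(+) clones 1, 2 and 3, the order of B2m. The same order held for 1427651_x_at, with 241, 261 and 332. The part of fibroblast RNA in the differences of the members was not tested.

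**Figure D4:**
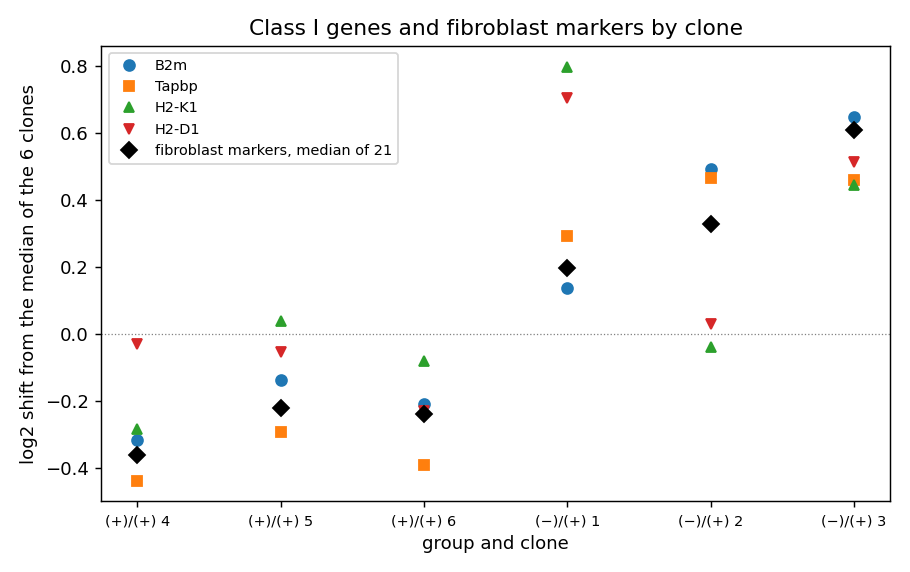
Log2 shift from the median of the 6 clones (y axis) of B2m, Tapbp, H2-K1 and H2-D1 and the median shift of 21 fibroblast markers (black) in each clone (x axis, (+)/(+) clones 4 to 6 and then (−)/(+) clones 1 to 3). B2m and the marker median rank the clones alike, from -0.31 and -0.36 in clone 4 to 0.65 and 0.61 in clone 3. H2-K1 and H2-D1, each by its brightest probe set, are highest in clone 1, at 0.80 and 0.70.

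Blood and immune cells, which also carry much class I, had low signals for most markers. Of 14 listed markers 13 were measured and 5 tested, with 0 called in limma and 3 under an unadjusted p of 0.05. The 3 were Laptm5, Coro1a and Cd8a. Cd8a averaged 55.9 in (+)/(+) and 103 in (−)/(+) clones. Its (+)/(+) mean lay below the level of 67.2 that the filter set, and its difference is not read as a change. The 8 that were not tested, among them Ptprc, the common leukocyte antigen, and Cd3e, a chain of the T-cell receptor complex, reached at most 65.5 in any clone, 23.04 for Ptprc and 26.8 for Cd3e. Of the tested ones, Laptm5, a lysosomal membrane protein of leukocytes, had 658, 968 and 940 in (+)/(+) clones, against 1020, 2523 and 1784 in (−)/(+) clones (log2 difference -0.97, adjusted p = 0.084). Cd68 had 148, 154 and 125 in (+)/(+) clones, against 196, 254 and 141 in (−)/(+) clones, and Coro1a had 147, 139 and 183 in (+)/(+) clones, against 99.6, 128 and 89.9 in (−)/(+) clones. Of the pluripotent cell markers, 17 of 17 were tested, with 0 lower and 1 higher, beside 1.41% and 1.55% of all tested genes. Their median was -0.02. The higher one was Fbxo15 (log2 difference 0.64, adjusted p = 0.014 from limma, and 0.051 without clone 5 and 0.090 without clone 6).

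Over all 6 clones, the genes whose pattern lay nearest to B2m were looked for among the 6017 tested genes with a mean signal above 500, by the root mean square distance of log2 values centred on their mean. The nearest was Itgb5, an integrin subunit, at a distance of 0.05 log2 units, with 377, 424 and 389 in (+)/(+) clones, against 505, 637 and 798 in (−)/(+) clones. Next came S100a6, a calcium-binding protein that is also on the fibroblast list, Mapre2, which binds microtubule ends, Anxa1, a phospholipid-binding annexin, and Ids, a lysosomal sulfatase, at 0.07 to 0.08. Of the members above that signal, Tapbp ranked 19 (0.12), H2-K1 ranked 2587 (0.36) and Psmb10 ranked 5644 (0.58). Such likeness rests on 6 points from 1 array each. The members were chosen on differences between the groups, which enter this distance, so nothing is read from their ranks.

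The other class I heavy chains were mostly dim or not told apart by the array. Of 24 listed genes 9 had a probe set of their own and 4 were tested, with 0 called in limma and 0 under an unadjusted p of 0.05, and a median log2 difference of 0.05. H2-M3, which presents formylated peptides, had 265, 359 and 271 in (+)/(+) clones, against 273, 258 and 287 in (−)/(+) clones. H2-Bl had 135, 234 and 191 in (+)/(+) clones, against 194, 180 and 231 in (−)/(+) clones, and H2-Q10, a secreted class I molecule, had 158, 144 and 173 in (+)/(+) clones, against 266, 109 and 133 in (−)/(+) clones. The groups overlapped in all 3. Among shared probe sets, picked with their values in view, 1449875_s_at (H2-T9, H2-T22 and H2-T10) had 418, 395 and 346 in (+)/(+) clones, against 723, 485 and 689 in (−)/(+) clones, without overlap (log2 difference -0.67, adjusted p = 0.062). The (−)/(+) clones were ordered as for the brightest probe set of H2-K1, with clone 1 highest and clone 2 lowest. The probe set 1418536_at (H2-Q9 and H2-Q7) had 168, 345 and 280 in (+)/(+) clones, against 433, 197 and 236 in (−)/(+) clones and overlapped.

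Molecules with a class I-like fold do not present peptides of this kind. Of 7 listed 5 were tested, with a median difference of -0.37. This median is the value of Mr1, which averaged 61.6 in (+)/(+) and 85.3 in (−)/(+) clones. The (+)/(+) mean of Mr1 lay below the level of 67.2 that the filter set, and this median is not read as a change. Only 1 gene was called lower, beside 1.41% of all tested genes. This was Procr, the receptor of protein C, with 101, 74.4 and 58.5 in (+)/(+) clones, against 151, 207 and 200 in (−)/(+) clones, which fell by 1.11 in log2 units (95% interval -1.61 to -0.62, adjusted p = 0.0305). Its adjusted p was 0.023 without clone 1 and 0.043 without clone 4, but 0.077 without clone 2, 0.104 without clone 3, 0.085 without clone 5 and 0.131 without clone 6. Of 9 ligands of the activating receptor NKG2D, 2 were measured and neither was tested.

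Genes of folding in the endoplasmic reticulum and of peptide trimming gave a single call. Of 10 tested folding genes 0 were called in limma (3 under an unadjusted p of 0.05), with a median of -0.05, and 6 had a negative difference. The 3 were Ganab, Uggt1 and Pdia3, with log2 differences of -0.46, -0.30 and -0.20. They are named for their unadjusted p, a choice that favours groups without overlap. In these 3 of the 10 all (+)/(+) clones lay below all (−)/(+) clones, and in 1 above, beside 16.6% and 10.5% of all tested probe sets. The chaperone Hspa5 had 18178, 16591 and 15810 in (+)/(+) clones, against 15338, 14488 and 15774 in (−)/(+) clones. Hsp90b1 had 14360, 16404 and 17690 in (+)/(+) clones, against 14674, 14639 and 13957 in (−)/(+) clones, and the lectin chaperone Canx had 14612, 13702 and 14501 in (+)/(+) clones, against 16162, 14147 and 14947 in (−)/(+) clones. The log2 differences of Hspa5, Hsp90b1 and Canx were 0.15, 0.16 and -0.08, and of these only Hspa5 had no overlap between the groups. Of 8 tested peptidases 1 was called lower, beside 1.41% of all tested genes, with a median of -0.17. Erap1, which trims peptides in the endoplasmic reticulum to the length that class I binds, had 37.0, 58.1 and 29.8 in (+)/(+) clones, against 124, 94.8 and 120 in (−)/(+) clones. The log2 difference was -1.18 (95% interval -1.72 to -0.64, adjusted p = 0.035). All (+)/(+) clones lay below the level of 67.2 that the filter set, so that Erap1 was tested only because it was high in (−)/(+) clones, and its call is not read as a change. With no filter the adjusted p was 0.098. It was 0.091 without clone 4, 0.054 without clone 5 and 0.137 without clone 6, and without any one (−)/(+) clone its mean lay below the median of all probe sets and it was not tested.

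The standard proteasome, which the immunoproteasome subunits modify, was bright and none of its 14 tested subunits was called in limma (5 under an unadjusted p of 0.05). Their median difference was 0.14, 1 of 14 had a negative difference and in 5 all (+)/(+) clones lay above all (−)/(+) clones, beside 10.5% of all tested probe sets. Psmb5 had 7764, 6962 and 6961 in (+)/(+) clones, against 7661, 6939 and 7812 in (−)/(+) clones, a log2 difference of -0.05 (95% interval -0.25 to 0.15). Psmb6 had 10633, 9301 and 9768 in (+)/(+) clones, against 11262, 8306 and 9818 in (−)/(+) clones, a difference of 0.02 (95% interval -0.23 to 0.27). These catalytic subunits overlapped between the groups. Psmb7 did not, with 2043, 1678 and 1951 in (+)/(+) clones, against 1508, 1525 and 1623 in (−)/(+) clones, a difference of 0.28 (95% interval 0.03 to 0.53, adjusted p = 0.19). Psma6, Psma3 and Psmb4, the brightest subunits, had differences of 0.12, 0.26 and 0.06.
Of 9 tested activators and assembly factors 0 were called in limma (2 under an unadjusted p of 0.05), with Psme4 at -0.20, Pomp, the chaperone of proteasome maturation, at 0.16 and Psmg1 at 0.01. Of 20 tested subunits of the 19S regulatory particle, which unfolds substrates, 1 was higher, beside 1.55% of all tested genes, and the median was 0.04. Psmd5, an assembly chaperone of that particle, had 3869, 3747 and 3758 in (+)/(+) clones, against 2951, 2815 and 2863 in (−)/(+) clones, and rose by 0.40 in log2 units (95% interval 0.20 to 0.59, adjusted p = 0.044). It passed without clone 1 (adjusted p = 0.0465) and missed the threshold without any other single clone (0.088 to 0.162).

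Transcription factors of class I promoters gave no call. Of 11 tested genes 0 were called in limma (1 under an unadjusted p of 0.05), and the median was 0.03. Nlrc5, the class I transactivator, lay near the background, with 38.7, 59.2 and 36.6 in (+)/(+) clones, against 28.4, 64.03 and 41.2 in (−)/(+) clones, and was not tested. Irf1, an activator of interferon-response motifs, had 471, 649 and 617 in (+)/(+) clones, against 983, 658 and 673 in (−)/(+) clones. The groups did not overlap, and (−)/(+) clone 1 was highest (log2 difference -0.39, 95% interval -0.80 to 0.02, adjusted p = 0.25). Irf1 lies on chromosome 11, whose 502 genes had a median shift of 0.27 in clone 1. Nfyb and Nfyc, subunits of the factor that binds CCAAT, had differences of 0.39 (adjusted p = 0.096) and 0.10, and Creb1 had 0.18. Of 11 tested genes of interferon signalling 0 were called in limma (1 under an unadjusted p of 0.05), the median being -0.12. Socs3, a feedback inhibitor of cytokine receptors that also lies on chromosome 11, had 3717, 3788 and 3204 in (+)/(+) clones, against 5143, 4273 and 4686 in (−)/(+) clones (log2 difference -0.40, adjusted p = 0.075). The kinase Jak1 and the factor Irf3 had -0.12 and 0.08 and overlapped.

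Genes that interferons induce in many cell types had a median difference of -0.39, with 4 of 24 tested genes lower and 0 higher, beside 1.41% and 1.55% of all tested genes. Of the 24, 20 had a negative difference, 10 had all (+)/(+) clones below all (−)/(+) clones (16.6% of all tested probe sets) and 13 had an unadjusted p under 0.05. The 20 include Rtp4 and Usp18, whose (+)/(+) means of 58.0 and 63.9 lay below the level of 67.2 that the filter set. Rtp4 is also among the 10 and the 13. Cxcl10, which had a positive difference, had a (−)/(+) mean of 64.4, also below that level. The differences of Rtp4, Usp18 and Cxcl10 are not read as changes. Ifi27 had 497, 365 and 334 in (+)/(+) clones, against 699, 676 and 944 in (−)/(+) clones, and fell by 0.93 in log2 units (adjusted p = 0.0295). Ifitm3, a membrane protein that restricts virus entry, had 2545, 2553 and 2741 in (+)/(+) clones, against 3261, 4644 and 4082 in (−)/(+) clones, and fell by 0.60 (adjusted p = 0.040). Trim25, a ubiquitin ligase, had 3126, 3457 and 3551 in (+)/(+) clones, against 4427, 4782 and 4711 in (−)/(+) clones, and fell by 0.46 (adjusted p = 0.035). The groups were apart in all 3, and clone 1 was not the highest in any of them.
Ifi35 had 400, 416 and 426 in (+)/(+) clones, against 1603, 652 and 837 in (−)/(+) clones, and fell by 1.18 (adjusted p = 0.043). Here (−)/(+) clone 1 stood far above the rest. Ifi35 and Trim25 lie on chromosome 11, and without clone 1 their adjusted p was 0.022 and 0.032. Leaving out one clone gave 1 lower gene (clone 4), 2 (clone 2), 0 (clone 3, 5 or 6) or 6 (clone 1). The fibroblast marker sums given above moved with the groups in the same way, and their part in these differences was not tested.

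**Figure D5:**
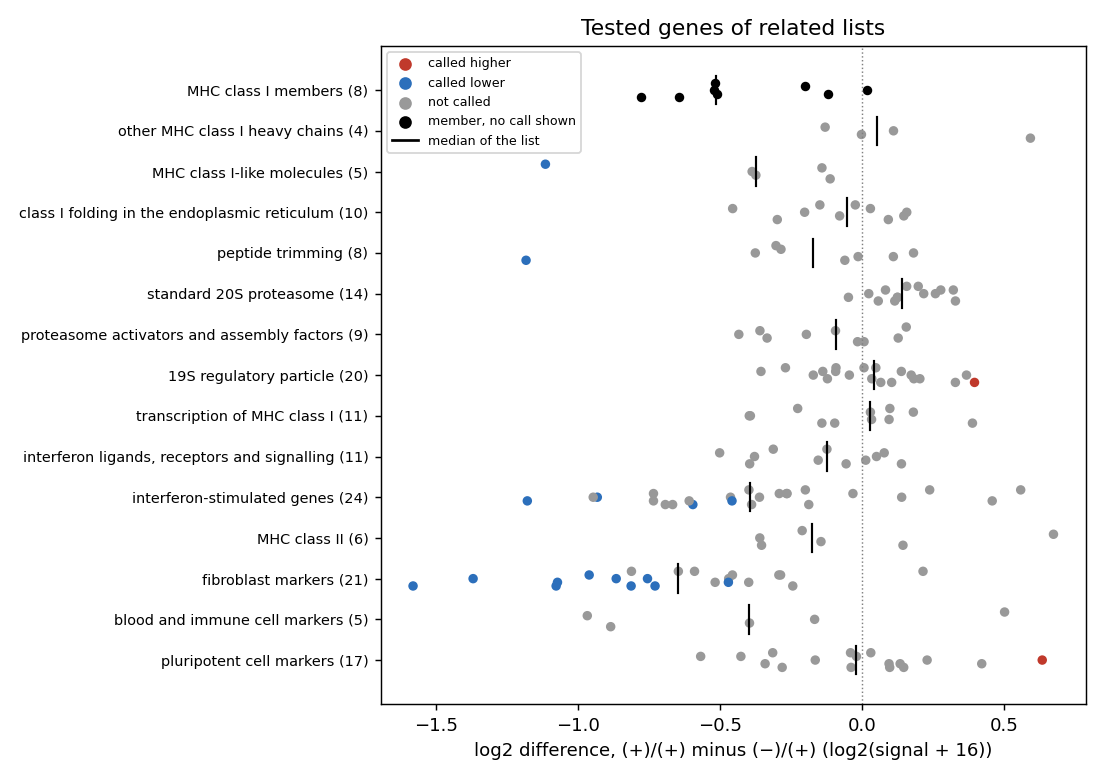
Log2 difference, (+)/(+) minus (−)/(+) on the log2(signal + 16) scale (x axis), of each tested gene of the members and of 14 related lists (y axis, number of tested genes in brackets), with the list median as a line, blue for genes called lower, red for genes called higher, grey for genes not called and black for the members, for which no call is shown. The median is -0.51 for the members, -0.39 for interferon-stimulated genes, -0.65 for fibroblast markers and 0.14 for the standard proteasome.

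In MHC class II, which presents peptides on antigen-presenting cells and shares the region of chromosome 17, 0 of 6 tested genes were called in limma (1 under an unadjusted p of 0.05), with a median of -0.18. That 1 was H2-Oa, which was higher in (+)/(+) clones (log2 difference 0.67, adjusted p = 0.22 from limma). It averaged 99.9 in (+)/(+) and 58.5 in (−)/(+) clones. Its (−)/(+) mean lay below the level of 67.2 that the filter set, and its difference is not read as a change. H2-Ab1 had 138, 144 and 131 in (+)/(+) clones, against 181, 206 and 157 in (−)/(+) clones, without overlap (log2 difference -0.35, adjusted p = 0.27). H2-Eb1 and the invariant chain Cd74 had -0.14 and -0.21 and overlapped. The signals of H2-Ab1, H2-Eb1 and Cd74 reached at most 206.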

How the data were processed

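RNA of 6 iPSC clones, 3 of each group, was isolated with TRIzol, labelled with biotin and hybridised to 1-colour Affymetrix Mouse Genome 430 2.0 arrays. The authors quantified the arrays with MAS 5.0 and deposited one linear signal intensity for each probe set. The trimmed mean (2% of values dropped at either end) was 500 on every array, so the intensities had been scaled. Neither detection calls nor intensities of single probes entered the analysis.
After removal of 64 controls from 45101 probe sets, genes were named from the array annotation, with positions and promoters from RefSeq (GRCm38.p6). A probe set annotated to several genes was shown apart, and each gene was counted by the brightest probe set of its own. Values were log2(signal + 16), without further scaling. The 22518 probe sets whose mean exceeded the median of all probe sets (11177 genes) were fitted in R 4.3.3 with limma 3.58.1 (lmFit, eBayes with trend) on group alone, with Benjamini-Hochberg adjustment. The fit was tested on simulated data. The number of arrays limits the precision.
The members and the related lists were chosen with earlier results of these data known. Named were all members. Of each list up to 4 called genes were named, those of lowest adjusted p, and in a list without calls up to 3 genes of highest signal. The genes Psmb5, Psmb6, Psmb7, Nlrc5 and Irf1 and the 5 genes closest to B2m were named as well. Others, such as Thy1, were picked with their values in view.
As alternatives, arrays were quantile normalized or brought to a common median, the pseudocount was set to 1 or 64, the filter was dropped or raised to a mean signal of 500, and eBayes was run without trend or with arrayWeights. The methods' t-test, the average over a gene's probe sets and the omission of each clone were also tried. Figures were drawn with matplotlib 3.10.9.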

Additional observations from a re-analysis of the deposited data

How the results depend on the processing

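No paired analysis was possible because no clone number occurs in both groups. Of 131 recomputed log2 differences of single members, 128 moved by less than 1 SD and none turned a called value round, and the signs of Psmb9 and Psmb10 changed in some settings. Of the 18 called genes of related lists, Ifitm3, Trim25, Sparc, Acta2 and Col5a2 missed the threshold with a common median (adjusted p = 0.053 to 0.105), and Procr, Erap1, Ifi35, Psmd5, Acta2 and Col5a2 after quantile normalization (0.053 to 0.071), all from limma. Scaling to a common median moved the median of all tested probe sets by 0.15 on the log2 scale, and the median of the members was then -0.36. The share of higher among all calls was 43.4% as reported, 53.0% after quantile normalization and 79.4% after scaling to a common median.
Higher and lower calls over all probe sets numbered 305 and 398 as reported, 287 and 255 after quantile normalization, 917 and 238 with a common median, 101 and 120 with no filter, 215 and 165 above a mean signal of 500, 87 and 178 with eBayes without trend, 1015 and 1512 with arrayWeights, and 0 and 1 with the methods' t-test, which gave 3999 before adjustment. Lower member probe sets numbered 4 as reported, 2 with a common median, 1 with no filter, 1 with eBayes without trend, 10 with arrayWeights and 0 with the methods' t-test, which gave 7 before adjustment. None was called higher in any setting. Calls in the related lists numbered 18 as reported, 6 with no filter, 10 above a signal of 500, 6 with eBayes without trend, 41 with arrayWeights, 0 with the methods' t-test and 11 with the mean of all probe sets.
Leaving out each clone gave 27 to 446 higher and 25 to 515 lower probe sets, 0 to 4 lower member probe sets (0 without clone 3, 5 or 6, and 1 without clone 4), 1 to 25 calls in the lists, and a member median of -0.61 (without clone 2) to -0.34 (without clone 1). Each of these fits has fewer arrays. Without clones 2 and 4, an alternative chosen after seeing the data, there were 146 higher, 130 lower, 0 lower member probe sets and 7 calls in the lists. Leaving out arrays does not test a cause, and the cause of the changes was not tested. Signals near the array background, as for Psmb8 and Nlrc5, give no reliable order.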
